A study of Arabidopsis thaliana with 20 samples.

Results

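ATG8B (AT4G04620), ATG8C (AT1G62040), ATG8D (AT2G05630) and ATG8G (AT3G60640) are 4 of the 9 ATG8 genes of Arabidopsis thaliana that the array measured. They were chosen by their giant and control cell signals, and each was read from the probe set that the array's annotation lists with that gene alone. The annotation lists 13356 genes in this way, among 22746 gene probe sets. All 4 passed the filter on dim signals, which kept 14652 probe sets. Each gene had 1 probe set. Probe sequences were not used here, so whether a probe set also takes up transcripts of another ATG8 gene was not checked.

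The samples were laser-captured cells from Columbia roots carrying the root-knot nematode Meloidogyne incognita. Seedlings of 3 weeks received 1000 second-stage juveniles, and cells were cut 21 days later. Giant cell samples held about 80 of the enlarged feeding cells that the nematode induces (5000000 square micrometres of section). Control samples held about 150 root cells (13000000 square micrometres) from stretches of the same infested roots that carried no nematode, so every group came from infested plants. RNA was amplified either with WT-Ovation Pico after isolation of the RNA, or with WT-Ovation One-Direct straight from lysed cells. Kit and isolation step cannot be told apart, nor can cell type and the number of cells captured. Each of the 4 groups had 3 biological samples, 1 of which was split over 3 arrays, giving 20 arrays. Split arrays were averaged, so n = 3 throughout. No label links a sample with particular plants. The p-values thus rest on the variation among these samples, which may be partly technical. In captured material, more cells of a type and more RNA per cell cannot be told apart.

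ATG8 proteins are small ubiquitin-like proteins that are joined to a lipid of the growing autophagosome membrane, where they hold cargo and help the membrane expand and close. The protease ATG4 trims most of them to a terminal glycine, the E1-like enzyme ATG7 and the E2-like enzyme ATG3 activate and pass them on, and a complex of ATG5, ATG12 and ATG16 completes the transfer. The ATG1 kinase complex, with ATG13, ATG11 and ATG101, starts the process, and the TOR complex, of which RAPTOR is a subunit, restrains it. Plants carry a whole ATG8 family where yeast has a single gene.

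In these arrays the signals of the 4 ATG8 genes in giant cells were 2.43-fold to 3.07-fold those in control cells over both kits. Every giant cell sample lay above every control sample of its own kit for ATG8B, ATG8C and ATG8D (in One-Direct for 3 of 4 genes, where 14.6% of all kept probe sets did), and for ATG8G with Pico (4 of 4, where 25% did). ATG8C also passed between the kits over both cell types, with a lower signal in One-Direct, as 34.3% of all kept probe sets passed in either direction. No such kit difference passed for the other 3 at the main settings, but that of ATG8B did with arrays centred on their median. Among 13 kept probe sets of other autophagy genes, 1 passed between giant and control cells over both kits, where 19.6% of all kept probe sets did. It was a probe set of the kinase gene ATG1C, and its call was lost in 12 of 23 other settings. The second ATG1C probe set did not pass (adjusted p = 0.0508, limma). The array values are linear signals, given here as log2(signal + 16), and differences are in log2 units. Their standard errors (SE) come from 1 spread per probe set that all 4 groups share. They are therefore equal in both kits and do not show the spread within a kit.

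The members were proposed with their giant and control values known, so those differences are a description without a test. They are also the 4 of 8 kept ATG8 genes that passed the limma test over both kits, in which 19.6% of all kept probe sets passed and 10.5% passed as higher in giant cells. Nothing is read from that count. ATG8G, with the smallest difference of the 4 (1.28, SE 0.35), and ATG8A, with the largest of the rest (1.01, SE 0.41), lie on either side of this line.

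**Figure D1:**
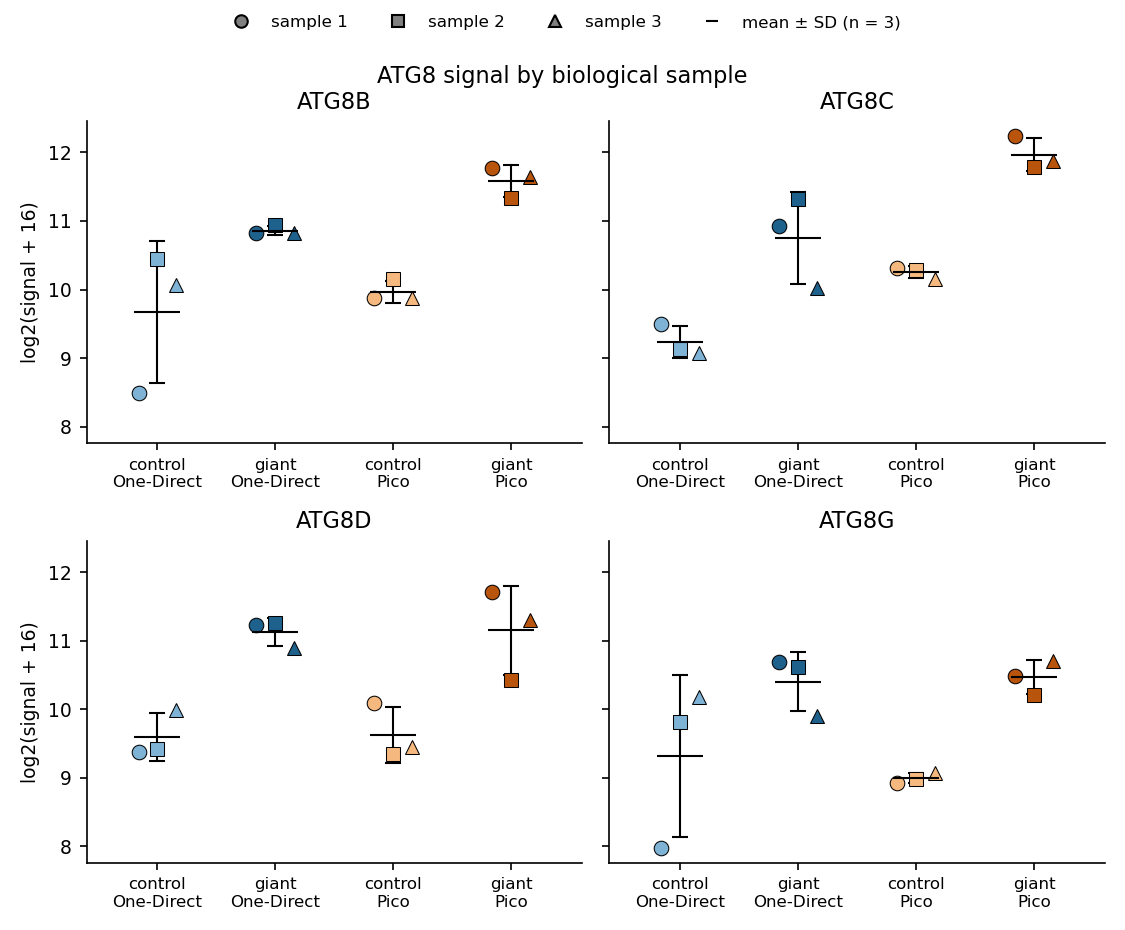
Log2(signal + 16) of ATG8B, ATG8C, ATG8D and ATG8G (panels, vertical axis) in the 3 biological samples of each group (horizontal axis), with marker shape for the sample number and black bars for the mean ± SD. The giant cell samples of ATG8B and ATG8C with Pico lie between 11.33 and 12.24, and control One-Direct sample 1 lies apart at 8.49 for ATG8B and 7.97 for ATG8G.

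ATG8C had the largest difference of the 4. With Pico its log2 signals were 10.32, 10.28 and 10.15 in control cells and 12.24, 11.79 and 11.87 in giant cells. With One-Direct they were 9.50, 9.13 and 9.07 in control cells and 10.92, 11.32 and 10.02 in giant cells. The cell types did not overlap in either kit, and giant One-Direct sample 3 was the lowest giant cell sample. Giant cells were 1.72 higher with Pico (SE 0.37) and 1.52 higher with One-Direct (SE 0.37), or 1.62 over both (SE 0.27, 3.07-fold). The group means ran, from low to high, control One-Direct (9.23 ± 0.23, SD, n = 3), control Pico (10.25 ± 0.09), giant One-Direct (10.75 ± 0.67) and giant Pico (11.97 ± 0.24). Control Pico and giant One-Direct are neighbours in this order whose samples overlapped.

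ATG8D gave nearly the same difference with both kits. With One-Direct its log2 signals were 9.37, 9.42 and 9.99 in control cells and 11.22, 11.26 and 10.89 in giant cells. With Pico they were 10.09, 9.34 and 9.44 in control cells and 11.71, 10.43 and 11.30 in giant cells. No giant cell sample reached down to the controls of its kit, and giant Pico sample 2 came closest to them. Giant cells were 1.53 higher with One-Direct and 1.52 higher with Pico (SE 0.40 each), which made 2.88-fold over both. The group means fell into a low pair, control One-Direct (9.59 ± 0.34) and control Pico (9.62 ± 0.41), and a high pair, giant One-Direct (11.13 ± 0.21) and giant Pico (11.14 ± 0.65), with overlapping samples within each pair.

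ATG8B was higher in giant cells by 1.41 over both kits (SE 0.32, 2.65-fold). Its control log2 signals were 9.87, 10.15 and 9.88 with Pico and 8.49, 10.44 and 10.07 with One-Direct. Its giant cell values were 11.78, 11.33 and 11.64 with Pico and 10.82, 10.94 and 10.82 with One-Direct. The 2 kits differed in how widely the controls spread: the SD was 0.16 with Pico and 1.04 with One-Direct, where sample 1 lay far below the others. The difference was 1.62 with Pico (SE 0.45) and 1.19 with One-Direct (SE 0.45), and without control One-Direct sample 1 the latter was 0.605. The means ran from control One-Direct (9.67) over control Pico (9.97) and giant One-Direct (10.86 ± 0.07) to giant Pico (11.58 ± 0.23), and only the controls of the 2 kits overlapped among neighbours.

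ATG8G resembled ATG8B in this low control sample. With One-Direct its control log2 signals were 7.97, 9.81 and 10.17, and its giant cell signals 10.68, 10.62 and 9.90. With Pico they were 8.92, 8.98 and 9.07 in control and 10.48, 10.21 and 10.70 in giant cells. The cell types stood clear of each other with Pico and overlapped with One-Direct, where giant sample 3 lay below control sample 3. The difference was 1.48 with Pico (SE 0.50) and 1.08 with One-Direct (SE 0.50), and 0.413 in One-Direct without control sample 1. The equal SEs reflect the shared spread, although the control SD was 0.07 with Pico and 1.18 with One-Direct. Control Pico had the lowest mean (8.99 ± 0.07), then control One-Direct (9.32 ± 1.18), giant One-Direct (10.40 ± 0.43) and giant Pico (10.47 ± 0.25), and each neighbouring pair overlapped.

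Control One-Direct sample 1, low for ATG8B and ATG8G, correlated least with its own group over all kept probe sets (mean r 0.618, against 0.686 and 0.716 for the other 2 samples). Its log2 3'/5' signal ratio for the GAPDH control probe sets, an array measure of RNA ends, was 4.42, where the other 11 samples ran from 1.07 to 2.93. Its ubiquitin ratio of 4.06 was likewise the highest, with the other samples at 1.97 to 3.15, but its actin ratio of 3.29 was not (others 2.37 to 3.63). Giant One-Direct sample 1 correlated least among the giant cell samples (mean r 0.747). Without both, the difference over both kits was 1.12 for ATG8B, 1.65 for ATG8C, 1.45 for ATG8D and 0.874 for ATG8G, and in One-Direct alone it was 0.625, 1.58, 1.37 and 0.272. The GAPDH ratio also moved with cell type, with means of 3.36 ± 0.924 for control and 2.24 ± 0.177 for giant samples in One-Direct. The corresponding means in Pico were 2.33 ± 0.203 and 1.20 ± 0.158. The other ratios did not move this way in both kits: the actin means for control and giant samples were 3.01 and 2.56 (One-Direct) and 3.05 and 3.25 (Pico), and the ubiquitin means 2.78 and 3.00 (One-Direct) and 2.9 and 2.67 (Pico). The part of these ratios in the ATG8 values was not tested.

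All kept probe sets together were shifted by a median of 0.24 towards giant cells over both kits (0.31 with One-Direct, 0.16 with Pico). Relative to this shift the differences over both kits were 1.38 for ATG8C, 1.29 for ATG8D, 1.17 for ATG8B and 1.04 for ATG8G. Giant cells stood clear of controls in both kits for 3 of the 4 members, as they did for 7.47% of all kept probe sets, a count that the choice of members again fixes in part. Of markers for other root cell types, 1 of 10 listed genes was named on the array and none passed the filter. None of 4 genes known from giant cells was named, so neither label was checked against its markers.

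Set side by side, the giant minus control difference in One-Direct less that in Pico was -0.42 for ATG8B (SE 0.63), -0.19 for ATG8C (SE 0.53), 0.01 for ATG8D (SE 0.57) and -0.39 for ATG8G (SE 0.71). Each lay within 1 SE of 0, but the values come from the differences on which the members were chosen. Whether that choice favours like differences in both kits was not tested. No test of a dependence on the kit is therefore given.

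**Figure D2:**
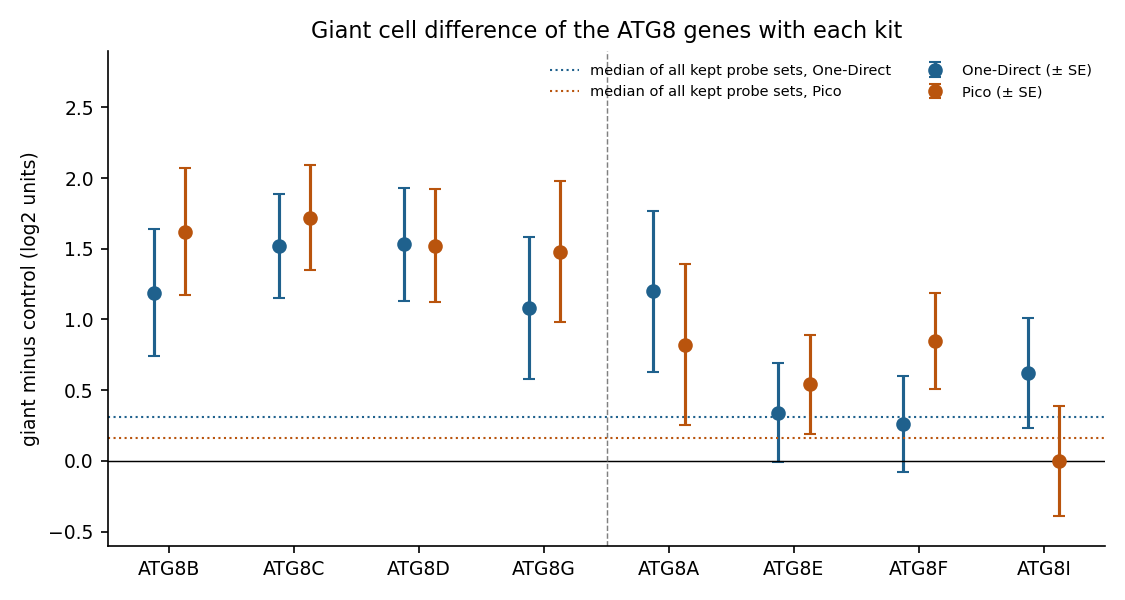
Giant minus control difference in log2 units (vertical axis) with One-Direct and Pico, with bars for the standard error, for ATG8B, ATG8C, ATG8D and ATG8G (left of the dashed line) and the other kept ATG8 genes (right). Dotted lines mark the median of all kept probe sets at 0.31 and 0.16, and the 4 genes on the left run from 1.08 to 1.72. The spread behind the bars is shared by all 4 groups, so bar length does not compare the kits.

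The other kept ATG8 genes lay lower over both kits. With One-Direct alone, ATG8A (1.20) lay above the members ATG8B (1.19) and ATG8G (1.08). ATG8A was higher in giant cells by 1.01 over both kits (adjusted p = 0.0974, limma), ATG8F by 0.55 (adjusted p = 0.125), ATG8E by 0.44 (adjusted p = 0.227) and ATG8I by 0.31 (adjusted p = 0.46). None passed, where 19.6% of all kept probe sets did (10.5% as higher in giant cells). An unadjusted p under 0.05 was reached by 2, without a share over all kept probe sets to set beside it. ATG8I was named beside these because it completes the family. ATG8A, ATG8E and ATG8F had every giant cell sample above every control with Pico, as did 25% of all kept probe sets, and overlapped with One-Direct, where 14.6% of all kept probe sets lay clear in this direction. ATG8A shared the low value in control One-Direct sample 1, at 7.85 against 10.41 and 10.01 in the other controls of that kit. Without that sample its difference was 0.617 over both kits and 0.41 in One-Direct, where it had been 1.20. Without control One-Direct sample 2 it passed (1.26, adjusted p = 0.0398), and ATG8F passed with quantile normalisation (0.921, adjusted p = 0.013). With median centring the One-Direct differences of ATG8E (-0.145) and ATG8F (-0.231) fell below 0. ATG8H was too dim to pass the filter, with group means of 6.14 to 7.01. ATG8H and ATG8I form the branch of the family whose proteins end in the glycine without trimming by ATG4. Since the 4 members were picked for their difference, the gap over both kits between them and the rest is no test of a split within the family.

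Between the kits, ATG8C was the 1 member of 4 that passed over both cell types, where 34.3% of all kept probe sets did (16.3% as lower in One-Direct and 18% as higher). Its signal was 1.11 lower in One-Direct than in Pico (SE 0.27, 95% interval -1.69 to -0.54, adjusted p = 0.00539, limma, n = 3 per group), which is 2.16-fold. All One-Direct samples lay below all Pico samples in control and in giant cells, as did 18.9% and 22.3% of all kept probe sets. The call over both cell types held in all 23 other settings, with differences from -1.50 to -0.931. The GAPDH 3'/5' ratio was higher in One-Direct in both cell types (means of 3.36 against 2.33 in control and 2.24 against 1.20 in giant samples), and its part in the ATG8C difference was not tested. In giant cells alone ATG8C was 1.21 lower (adjusted p = 0.0344, with 21.2% of all probe sets passing, 5.99% as lower) and in control cells alone 1.02 lower (adjusted p = 0.0705, with 21.3%). The giant cell call was lost without giant One-Direct sample 3 (-0.845, adjusted p = 0.162) and without giant Pico sample 1, 2 or 3 (adjusted p = 0.138, 0.068 and 0.0792). It was also lost with quantile normalisation (-0.828, adjusted p = 0.183). In control cells it was gained without giant One-Direct sample 3 (adjusted p = 0.0453).

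ATG8B, ATG8D and ATG8G did not pass between the kits over both cell types. ATG8B was 0.51 lower in One-Direct (95% interval -1.20 to 0.17, adjusted p = 0.236), and all its giant cell samples in One-Direct lay below those in Pico. With arrays centred on their median it did pass (-0.894, adjusted p = 0.0235). ATG8D differed by -0.02 (95% interval -0.63 to 0.59, adjusted p = 0.958) and ATG8G by 0.13 (95% interval -0.63 to 0.90, adjusted p = 0.804). These intervals leave room for differences of either sign, and the sign turned with scaling for ATG8D (0.157 with quantile normalisation) and ATG8G (-0.249 with median centring). For ATG8G in control cells the kit difference was 0.33 (adjusted p = 0.681) with all samples and 1.0 (adjusted p = 0.055) without control One-Direct sample 1.

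**Figure D3:**
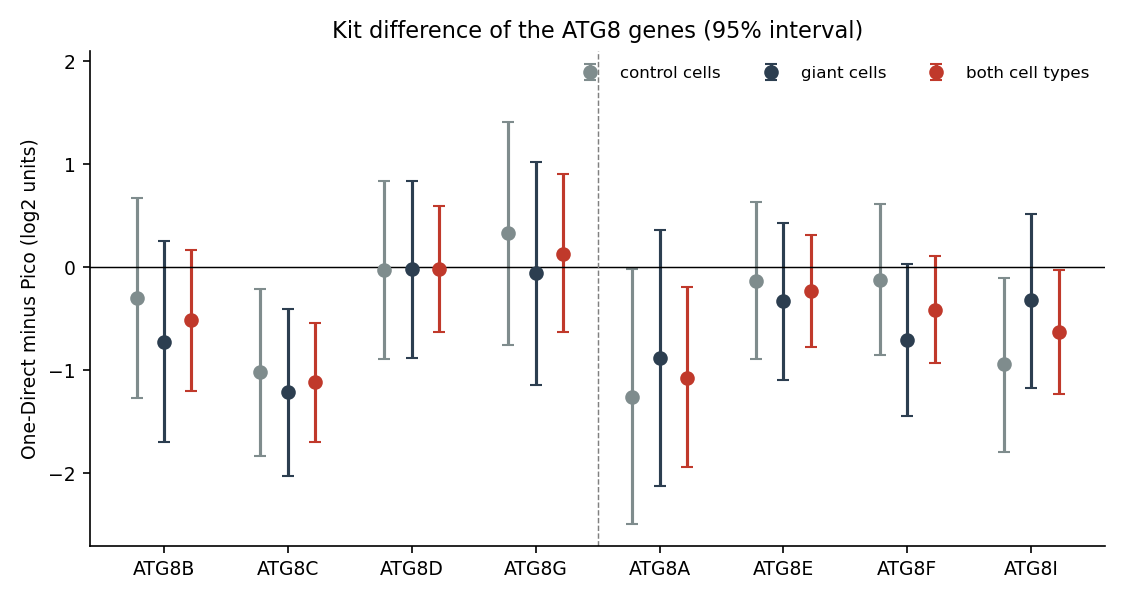
One-Direct minus Pico difference in log2 units (vertical axis) for the ATG8 genes in control cells, in giant cells and over both, with bars for the 95% interval. The interval over both cell types lies below 0 for ATG8C (-1.69 to -0.54) and spans 0 for ATG8B, ATG8D and ATG8G.

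Among the other kept ATG8 genes none passed between the kits over both cell types (limma, with 2 at an unadjusted p under 0.05), where 34.3% of all kept probe sets did. All 4 had lower values in One-Direct at the main scaling, from -1.07 for ATG8A (adjusted p = 0.0571) to -0.23 for ATG8E (adjusted p = 0.509). For ATG8F the direction turned with quantile normalisation (from -0.41 to 0.377), and with median centring it passed as lower (-0.797, adjusted p = 0.0249). ATG8A passed without control One-Direct sample 2 (adjusted p = 0.0205) or 3 (adjusted p = 0.0391), without control Pico sample 3 (adjusted p = 0.047) and without One-Direct sample 1 of both cell types (adjusted p = 0.0378). It also passed with median centring (-1.45, adjusted p = 0.00715), the first technical array alone (adjusted p = 0.0269), sample quality weights (adjusted p = 0.0383) and a pseudocount of 64 (adjusted p = 0.0392). The median of all kept probe sets was -0.09.

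Arrays of the same split sample showed how far the 4 genes repeat technically. In Pico control sample 2 the 3 arrays of ATG8G ran from 8.91 to 9.11 (SD 0.114), and in Pico giant sample 1 those of ATG8C ran from 12.11 to 12.38 (SD 0.134). In One-Direct giant sample 1 those of ATG8G ran from 10.57 to 10.86 (SD 0.157). The widest was ATG8D in One-Direct control sample 2, from 8.67 to 10.20 (SD 0.763), where the median SD of all kept probe sets was 0.647. In that control sample ATG8B ran from 10.16 to 10.88 and ATG8G from 9.55 to 10.05, both well above the values of 8.49 and 7.97 in control sample 1, which was not split. With 1 array per sample, the SD over the 3 One-Direct control samples was 0.939 for ATG8B and 1.13 for ATG8G, above the median of 0.774 for all kept probe sets, and 0.332 for ATG8C and 0.429 for ATG8D, below it. With Pico the control SDs were 0.131 for ATG8B, 0.084 for ATG8C and 0.0898 for ATG8G, against a median of 0.386, and 0.469 for ATG8D. Over the 3 arrays of Pico control sample 2 the SDs were 0.223 for ATG8B, 0.369 for ATG8C and 0.114 for ATG8G. Each was larger than that gene's SD over the control samples, so those small SDs lie within the variation of repeat arrays. For ATG8D the SD over arrays was the smaller, at 0.152. These are descriptions without a test.

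**Figure D4:**
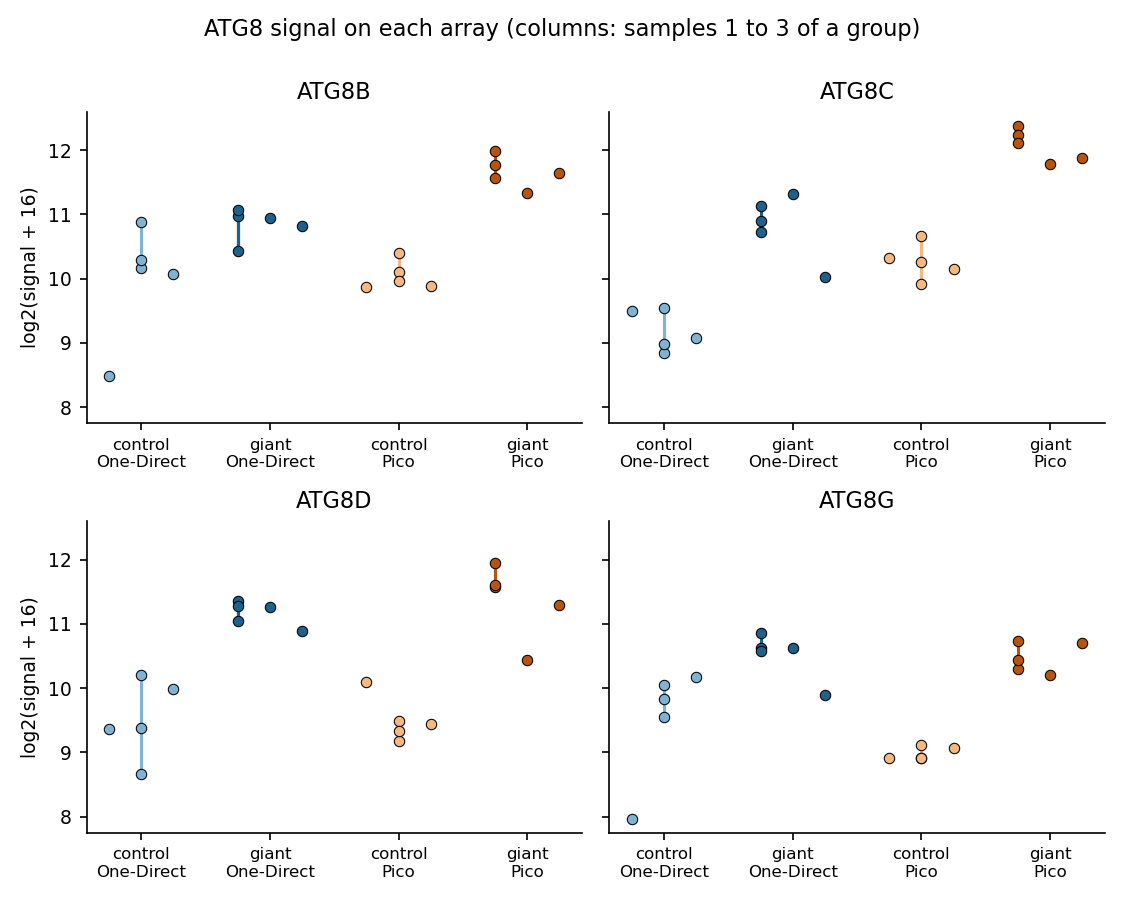
Log2(signal + 16) of the 4 genes (panels, vertical axis) on each of the 20 arrays, in columns for samples 1 to 3 of each group, with a line joining the 3 arrays of a split sample. The arrays of ATG8D in One-Direct control sample 2 run from 8.67 to 10.20, while those of ATG8G in Pico control sample 2 run from 8.91 to 9.11.

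The machinery that acts on ATG8 was read through a list of 47 further autophagy genes, of which 13 were named on the array and 12 passed the filter, with 13 probe sets. Over both kits 1 of the 13 passed as higher in giant cells and 0 as lower, against 10.5% and 9.04% of all kept probe sets. Their median difference was 0.45, beside 0.24 for all kept probe sets, and 11 of 13 were above 0, as were 63.6% of all. By kit, 8 of 13 were above 0 with One-Direct, where 64.5% of all were. With Pico it was 13 of 13, the lowest (ATG16) barely so, where 59% of all were. With One-Direct 0 passed (limma, 2 at an unadjusted p under 0.05), where 5.64% of all kept probe sets did, and differences ran from -0.71 to 1.25 around a median of 0.16. With Pico 1 passed, as higher, where 9.49% did (2.43% as higher), and the median was 0.66. The median of all kept probe sets was 0.31 with One-Direct, above that of the list, and 0.16 with Pico, below it. Differences over both kits ran from -0.26 to 1.0.

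ATG1C (AT2G37840), 1 of the ATG1 kinases that start autophagy, had 2 probe sets. The first rose in giant cells by 1.0 over both kits (SE 0.29, adjusted p = 0.0282, limma), from 8.50 ± 0.39 to 9.75 ± 0.68 with One-Direct and from 9.28 ± 0.45 to 10.05 ± 0.10 with Pico. This call was lost in 7 of 12 fits that left out 1 sample (giant One-Direct sample 1 or 2, control Pico sample 1 or 3, or any giant Pico sample), with adjusted p from 0.0529 to 0.0742. It was lost with quantile normalisation (adjusted p = 0.0729) and median centring (adjusted p = 0.0804) as well. The second differed by 0.72 over both kits (adjusted p = 0.0508) and passed with Pico alone (1.28, adjusted p = 0.0308), a call lost without any 1 of the 6 Pico samples. Between the kits the second was 0.85 higher in One-Direct (adjusted p = 0.0144), the 1 call among the 13, where 34.3% of all kept probe sets passed. The first was 0.54 lower (adjusted p = 0.17). The call of the second was lost with median centring (0.464, adjusted p = 0.179), quantile normalisation (0.632, adjusted p = 0.0687) and the first technical array alone (0.74, adjusted p = 0.0974). With median centring the first passed instead (-0.922, adjusted p = 0.0203).

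RAPTOR1A (AT5G01770, listed as RAPTOR2), a subunit of the TOR complex, differed by 0.86 over both kits (adjusted p = 0.0625, limma), and RAPTOR1B (AT3G08850, listed as RAPTOR1) by 0.58 (adjusted p = 0.216). Without control One-Direct sample 1 both passed, RAPTOR1A at 0.963 (adjusted p = 0.0315) and RAPTOR1B at 0.866 (adjusted p = 0.0108). RAPTOR1A passed also without control Pico sample 3 (1.09, adjusted p = 0.0226). Of the conjugation genes ATG3, ATG4B and ATG16, none passed over both kits (0.30, -0.05 and 0.42, adjusted p from 0.402 to 0.891). The remaining probe sets, of ATG1A, ATG1B, ATG1T, ATG13B, ATG101 and SH3P2, did not pass either. In control One-Direct sample 1 the kinase gene ATG1A was low too, at 6.34 against 10.63 and 10.41 in the other controls of that kit. ATG1A was singled out after its values were seen. Other listed genes were highest in that sample among the same controls. RAPTOR1B was at 8.67 (others 6.94 and 6.93), ATG16 at 10.5 (others 9.11 and 9) and RAPTOR1A at 7.96 (others 7.54 and 7.13).

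**Figure D5:**
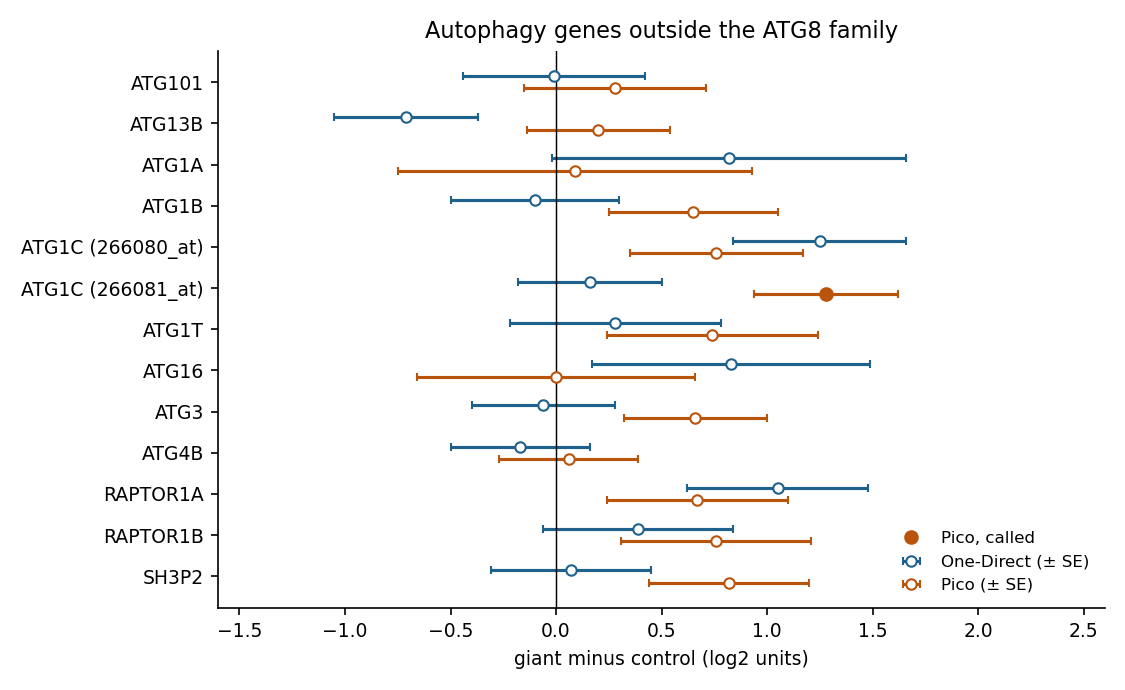
Giant minus control difference in log2 units (horizontal axis) with One-Direct and Pico, with bars for the standard error, for 13 probe sets of autophagy genes outside the ATG8 family (vertical axis). The filled point is the 1 call within a kit, the second ATG1C probe set with Pico at 1.28. The spread behind the bars is shared by all 4 groups.

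The genes whose log2 signals over the 12 samples ran most like those of each member were found among 8164 other kept probe sets listed with 1 gene. Any such likeness includes the cell type and kit differences that all 12 samples share, and with so many candidates a high r is bound to occur. For ATG8B they were AT1G26580 (Pearson r 0.965), AT3G50520 (0.962) and AT2G01220 (0.954). For ATG8C they were AT1G49560 (0.959), AT2G36300 (0.952) and AT4G23440 (0.951). For ATG8D they were AT1G20120 (0.943), AT1G60970 (0.943) and UPF3 (0.917), a factor of nonsense-mediated mRNA decay. For ATG8G they were AT5G48220 (0.954), DIM1B (0.94) and AT5G38730 (0.938). None of these is an autophagy gene of the list, but the list holds only 21 kept probe sets, so nothing is read from their absence. The closest other member was at 0.883 for ATG8B and for ATG8G, at 0.801 for ATG8D and at 0.769 for ATG8C. These values include the giant and control cell difference with which the members were chosen.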

How the data were processed

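The submitters' processing notes name MAS5 and the software Affymetrix Expression Console, without a version. The authors deposited 1 intensity, a linear signal, for each of 22810 probe sets (64 of them controls), with a 2% trimmed mean of about 500 on each of 20 arrays and medians from 166.5 to 311.3. Arrays were rescaled to a common trimmed mean, log2(signal + 16) was taken, and technical arrays were averaged. Probe sets above their array's median in at least 3 of 12 samples were kept. Group means were fitted with limma 3.58.1 in R 4.3.3 (lmFit, eBayes) to all 12 samples, with two-sided tests and Benjamini-Hochberg adjustment over all 14652 kept probe sets (threshold 0.05); the code was tested on simulated data. The pseudocount makes differences of dim probe sets too small. The number of samples limits the precision.

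Of the gene probe sets, 13513 were listed with 1 gene, 503 with several and 8730 with none; genes were named from the array's annotation through gene identifiers matched to a RefSeq table of the TAIR10.1 assembly; no sequence is shown because no sequence table was used here. The members and the gene lists were chosen with earlier results of these data known. Named genes are all members, the 6 other listed autophagy genes with the smallest adjusted p, and the 3 most alike probe sets per member; the other listed genes were added for completeness. Within a kit, deviations of control and giant samples with the same number from their group means correlated little (r from -0.0645 to 0.0295). With 3 samples per group this cannot exclude shared plants or batches, and numbers were not compared across kits.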

Additional observations from a re-analysis of the deposited data

How the results depend on the processing

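The median giant minus control difference of the 4 ATG8 genes stayed between 1.26 and 1.57 over both kits and between 1.41 and 1.77 in Pico, over the settings run. In One-Direct it fell from 1.36 to 0.872 with median centring. Leaving out 1 sample gave 1.29 to 1.57 over both kits, 1.01 to 1.49 in One-Direct and 1.49 to 1.77 in Pico. Of the 4 genes, 1 passed between the kits, and 2 with median centring; leaving out 1 sample always gave 1. In control cells 0 passed, but 1 did when One-Direct samples 1 of both cell types were dropped together, which was chosen after seeing the data (0 to 1 leaving out 1 sample). In giant cells 1 passed, with 2 under median centring or sample quality weights and 0 with quantile normalisation (0 to 1 leaving out 1 sample).

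Of the 17 kept autophagy probe sets other than the members, 1 passed between giant and control cells, with 2 at a pseudocount of 1 or the stricter filter, 4 with sample quality weights or with those One-Direct samples dropped, and 0 with median centring. Without control One-Direct sample 1 it was 4, without control One-Direct sample 2 or 3 it was 2, and without giant One-Direct sample 1 or 2, control Pico sample 1 or any giant Pico sample it was 0. In One-Direct 0 passed, but 1 did with those samples dropped (0 leaving out any 1 sample). In Pico 1 passed, with 0 for no filter, quantile normalisation or the first technical array alone, 3 with a weight per kit and 6 with sample quality weights (0 to 1 leaving out 1 sample). Between the kits 1 passed, with 2 at a pseudocount of 64 or with no filter, 4 with sample quality weights or with those One-Direct samples dropped, 7 with median centring, and 1 to 3 leaving out 1 sample. Calls over all kept probe sets moved with the settings too. Between the kits they rose from 5027 to 6106 with those samples dropped, 6235 with sample quality weights and 6730 with median centring. Between giant and control cells the values in the same order were 3965, 4335 and 2416, from 2868. With a pseudocount of 1 and the stricter filter those calls fell to 2644 and 1757. No change in the list counts is therefore read as particular to the list.

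With the replicate number as a block, the giant cell call of ATG8C between the kits was lost (adjusted p = 0.0646), leaving 0 members, and both ATG1C calls between giant and control cells were lost (adjusted p = 0.058 over both kits and 0.0819 in Pico), leaving 0 listed probe sets in each. The block changed no other call tested on the members between the kits or on the 6 named autophagy genes. Whether the numbers pair samples is not known.

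Over all kept probe sets, calls between giant and control cells numbered 2868 (53.8% higher), from 1757 to 4335 over the settings, with 42.3% higher under quantile normalisation and 33.7% under median centring. Between the kits they numbered 5027 (52.4% higher), from 2485 with the stricter filter (29% higher) to 8220 with no filter (69.8% higher), with 31.2% higher under median centring. Fits to the compared samples alone give no value over both kits or cell types. The cause of these changes was not tested.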
